A study of Mus musculus with 4 samples.

Results

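The neurotrophins, their Trk and p75 receptors and the GDNF receptor genes were followed in cultures of newborn mouse prefrontal cortex (PFC). The 8 genes described are Bdnf, Ntf3, Ntrk2, Ntrk3, Ngfr, Gdnf, Gfra1 and Ret, chosen by symbol from the 55421 genes listed in each count file. Of the 8 genes, 7 passed the expression filter and were among the 17144 genes tested, and Gdnf did not pass. Cells of the PFC of wild-type C57BL/6 mice at postnatal day 0 were dissociated with papain and cultured for 10 days in HABG medium, a serum-free neuronal medium of neurobasal, B27 and GlutaMAX. The cultures held FGF2, basic fibroblast growth factor, at 5 ng/mL in 2 libraries and no FGF2 in the other 2 libraries. Total RNA was depleted of ribosomal RNA and sequenced, so each library is the mixture of all cell types that the cultures held. The labels number the libraries of each group B1 and B2 without saying what B stands for. The study's methods describe technical replicates for all bulk samples except some human stages, which read literally takes in these mouse cultures. The SDs and p-values therefore measure the spread between libraries, which may be only technical. The comparison asked which transcripts differed between mouse cultures with and without FGF2, a part of the study's question of how FGF2 acts on cortical cells outside human tissue.

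Neurotrophins are secreted growth factors that signal through receptor tyrosine kinases of the Trk family. Brain-derived neurotrophic factor (BDNF, gene Bdnf) binds TrkB (gene Ntrk2) and neurotrophin-3 (gene Ntf3) binds mainly TrkC (gene Ntrk3), while p75 (gene Ngfr) binds all neurotrophins and their precursors. In the cortex, BDNF comes largely from excitatory neurons, full-length TrkB is found in neurons, and a truncated TrkB without the kinase domain is abundant in astrocytes. GDNF (gene Gdnf) binds the membrane-anchored co-receptor GFRA1 (gene Gfra1), and the complex activates the kinase RET (gene Ret) or signals through the adhesion molecule NCAM1.

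On the mouse genome mm10, Ntrk2 (ENSMUSG00000055254) lies on the plus strand at chr13:58806569-59133970 and Bdnf (ENSMUSG00000048482) on the plus strand at chr2:109674700-109727007. The gene counts sum the reads of all exons of a gene, so that starts and isoforms cannot be told apart. For Ntrk2, GENCODE M21 lists 10 transcripts, 7 of them coding, and full-length and truncated TrkB enter 1 count. The 250 bases upstream of the single RefSeq start of Ntrk2 are shown because Ntrk2 was the most abundant of the 8 genes. Bdnf has 7 starts in RefSeq, and the bases upstream of the start numbered 3 are shown because they hold the only match among the 7 to TGACG, the core of the cAMP response element (CRE) bound by CREB. Both windows are from RefSeq on GRCm38.p6, are read 5′ to 3′ on the plus strand, and overlap no annotated exon. Capitals mark the CRE core, which stands here as its reverse complement, and the Ntrk2 window holds none.
Ntrk2 upstream, chr13:58806319-58806568: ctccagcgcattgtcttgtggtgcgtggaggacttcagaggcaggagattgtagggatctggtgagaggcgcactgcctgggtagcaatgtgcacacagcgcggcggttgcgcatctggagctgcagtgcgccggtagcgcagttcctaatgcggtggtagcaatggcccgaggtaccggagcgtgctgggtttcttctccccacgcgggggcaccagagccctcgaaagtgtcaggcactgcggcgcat
Bdnf start 3 upstream, chr2:109692186-109692435: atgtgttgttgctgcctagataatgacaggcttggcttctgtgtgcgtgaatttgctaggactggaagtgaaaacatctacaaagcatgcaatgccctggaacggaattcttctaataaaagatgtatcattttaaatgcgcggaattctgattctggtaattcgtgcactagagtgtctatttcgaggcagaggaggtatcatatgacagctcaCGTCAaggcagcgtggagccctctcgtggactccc
The windows were searched on both strands for TGACG, for the GC box GGGCGG and for the E-box CACGTG. Neither window held GGGCGG or CACGTG on either strand, so the CRE match overlapped neither of these. Other forms of the E-box and other motifs were not searched for. Over the 250 bases upstream of all 32851 RefSeq starts, 17.8% held TGACG, 32.7% held GGGCGG and 6.02% held CACGTG. GC content was 62.8% in the Ntrk2 window and 45.6% in the Bdnf window.

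The FGF2 libraries held 9166432 and 9907613 counts on genes, and the no FGF2 libraries held 10460236 and 10799886. Levels are given as CPM, the share of a library's counts taken by a gene multiplied to a common total, with TMM scaling, and 3 counts in a library corresponded to 0.276 to 0.330 CPM. Fold changes are FGF2 over no FGF2, from the quasi-likelihood test of edgeR with Benjamini-Hochberg adjustment over all genes tested, and a gene was called at an adjusted p below 0.05. The 4 libraries split by treatment, with 75.2% of the variance on the first principal component, and 40.5% of all tested genes were called. With FGF2 20.7% were higher and 19.9% were lower. DESeq2, run as an alternative on the same counts, called 23.2% of the genes it gave an adjusted p. The median log2 fold change over the tested genes was -0.00082.

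Of the 7 genes tested, Bdnf, Ntrk2 and Gfra1 were higher with FGF2, Ntrk3 and Ret were lower, and Ntf3 and Ngfr did not pass the threshold. The 5 called genes stand beside a background in which 40.5% of genes were called. The libraries of the 2 groups did not overlap for these 5 genes, as was the case for 33.6% of all tested genes with both FGF2 libraries above and 33.4% with both below. Of the called genes only Ret passed a log2 fold change of 1 in size. Over all tested genes 2.38% were called with a log2 fold change under -1 and 5.22% with a log2 fold change over 1.

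**Figure D1:**
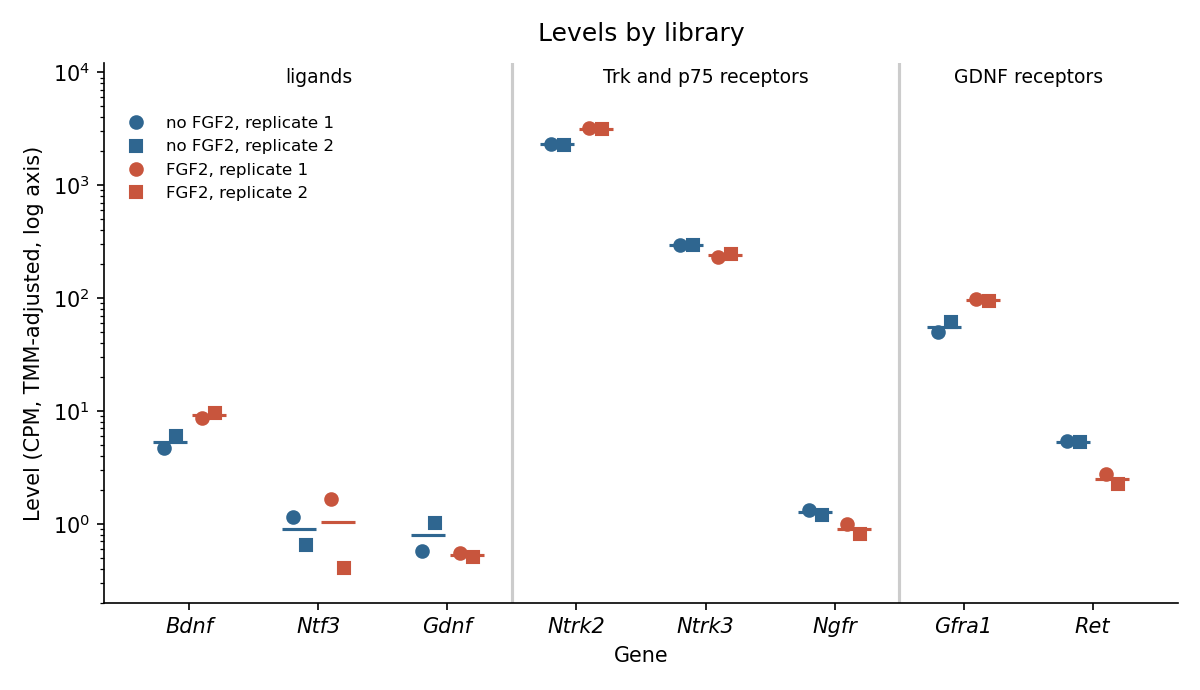
CPM of the 8 genes on a log axis, with 1 point for each library (red with FGF2, blue without, circles replicate 1, squares replicate 2) and the group means as bars. The FGF2 libraries lie above the others for Ntrk2, Gfra1 and Bdnf, lie below them for Ntrk3, Ret, Ngfr and Gdnf, and overlap them for Ntf3.

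Among the ligands, Bdnf had 79 and 94 counts in the FGF2 libraries and 49 and 65 in the others, or 8.68 and 9.53 CPM against 4.65 and 5.99 CPM. Both FGF2 libraries lay above both others. The mean was 9.11 ± 0.600 CPM with FGF2 and 5.32 ± 0.945 CPM without (SD, n = 2 libraries each), a log2 fold change of 0.77 (SE 0.23, edgeR adjusted p = 0.00231). This is a 1.71-fold difference in a gene of low level. With DESeq2 the log2 fold change was 0.77 and the adjusted p was 0.102, in a range of 0.0023 to 0.102 over 7 alternatives. Without replicate 1 of the no FGF2 group it was 0.60 with an edgeR adjusted p of 0.0978, so the call rests on that library and on the test. An antisense gene, Gm45346, covers 896 bases or 14.4% of the exonic length of Bdnf and had 1 to 4 counts in each library.

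Neurotrophin-3 and GDNF were near the limit of detection. Ntf3, on the minus strand at chr6:126101412-126166910, had 15 and 4 counts in the FGF2 libraries against 12 and 7. The groups overlapped and the sums were 19 counts in each group. Its log2 fold change was 0.18 (SE 0.61, edgeR adjusted p = 0.853). The ratio of the summed counts, scaled to the library totals after TMM adjustment, was 1.13 with an exact 95% interval of 0.565 to 2.25. Its sign turned with limma-voom (-0.06, adjusted p = 0.95) and without replicate 1 of the FGF2 group (-1.11), in a range of adjusted p from 0.853 to 0.95 over 6 alternatives with all libraries. Gdnf, at chr15:7810846-7837575, was read 5 times in each FGF2 library and 6 and 11 times in the others. It reached the filter of 0.982 CPM in 1 library and was not tested. Its ratio was 0.664 with an interval of 0.272 to 1.54. The counts do not tell apart the ratios within those intervals, and the intervals cover counting error only.

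Ntrk2 was the most abundant of the 8 genes by CPM and per kilobase of exon. It ranked 8 among all 55421 genes by mean CPM. By mean CPM per kilobase of exon it ranked 97 among the 55240 genes with a known length. It reached 3225 and 3133 CPM with FGF2 against 2328 and 2294 CPM without. Both FGF2 libraries were above both others, and the gap was many times the spread within a group. The mean was 3179 ± 64.9 CPM with FGF2 and 2311 ± 24.4 CPM without, a log2 fold change of 0.46 (SE 0.03, edgeR adjusted p = 4.5e-54) or 1.38-fold. The log2 fold change stayed between 0.44 and 0.48 with any library left out.

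Ntrk3, the TrkC gene on the minus strand at chr7:78175959-78738012, moved the other way. It had 231 and 247 CPM with FGF2 and 298 and 294 CPM without. The means were 239 ± 10.8 and 296 ± 2.64 CPM, a log2 fold change of -0.31 (SE 0.04, edgeR adjusted p = 7e-11), or 0.808 times the level without FGF2. GENCODE M21 lists 20 transcripts of Ntrk3, 6 of them coding, and truncated TrkC enters the same count.

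The counts of Ntrk2 and Ntrk3 in the same library give a ratio that needs no scaling between libraries. Ntrk2 had 13.9 and 12.7 reads for each Ntrk3 read with FGF2 and 7.82 and 7.80 without. The ratio was 1.70-fold higher with FGF2 (13.3 ± 0.871 against 7.81 ± 0.0131, n = 2), and both FGF2 libraries lay above both others. The exact two-sided permutation p was 0.333, the smallest that 2 libraries against 2 allow. All 5 within-library ratios computed here gave this p. The ratio of Bdnf to Ntrk2 reads was 0.00269 and 0.00304 with FGF2 and 0.00200 and 0.00261 without, so the 2 groups did not overlap but lay close together.

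Ngfr, the p75 gene on the minus strand at chr11:95568818-95587735, had 9 and 8 counts in the FGF2 libraries against 14 and 13. It passed the filter only through the no FGF2 libraries. The levels were 0.900 ± 0.126 and 1.26 ± 0.093 CPM, with a log2 fold change of -0.49 (SE 0.58, edgeR adjusted p = 0.546). The ratio of summed counts was 0.710 with an exact 95% interval of 0.363 to 1.35. Both FGF2 libraries lay below both others, and the counts do not tell apart the ratios within that interval.

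Gfra1, the GDNF co-receptor on the minus strand at chr19:58235604-58455909, had 893 and 926 counts in the FGF2 libraries against 526 and 667. This gave 98.2 and 93.9 CPM against 49.9 and 61.4 CPM, with no overlap and a wider spread in the no FGF2 group. The means were 96.0 ± 3.01 and 55.7 ± 8.14 CPM, a log2 fold change of 0.78 (SE 0.08, edgeR adjusted p = 7.4e-24) or 1.72-fold. The log2 fold change ran from 0.64 to 0.94 with each library left out. The antisense gene Gm16277 covers 416 bases or 7.60% of the exonic length of Gfra1 and had at most 3 counts in a library.

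Ret, the signalling kinase of the GDNF receptor complex on the minus strand at chr6:118151745-118197718, had 25 and 22 counts with FGF2 and 57 in each of the no FGF2 libraries. The levels were 2.75 and 2.23 CPM with FGF2 and 5.41 and 5.25 CPM without. Thus Ret was at 0.467 times its level without FGF2 (2.49 ± 0.366 against 5.33 ± 0.113 CPM), a log2 fold change of -1.10 (SE 0.32, edgeR adjusted p = 0.00194). With DESeq2 the size was the same (-1.10) and the adjusted p was 0.0805, in a range of 0.00144 to 0.0805 over 7 alternatives. The call held with each library left out, with adjusted p between 0.00406 and 0.0316.

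Thus the co-receptor gene was higher and the kinase gene lower in the same libraries. Gfra1 had 35.7 and 42.1 reads for each Ret read with FGF2 and 9.23 and 11.7 without, a ratio 3.73-fold higher with FGF2. The groups did not overlap, and the exact permutation p was again 0.333. Ncam1, the gene of the other signalling partner of GFRA1, had far more reads than Ret, without correction for gene length. Ncam1 had 1321 and 1262 CPM with FGF2 and 1775 and 1796 CPM without, a log2 fold change of -0.47 (SE 0.03, edgeR adjusted p = 4.1e-49). The ratio of Gfra1 to Ncam1 reads was 0.0743 and 0.0744 with FGF2 and 0.0281 and 0.0342 without, or 2.40-fold higher with FGF2.

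**Figure D2:**
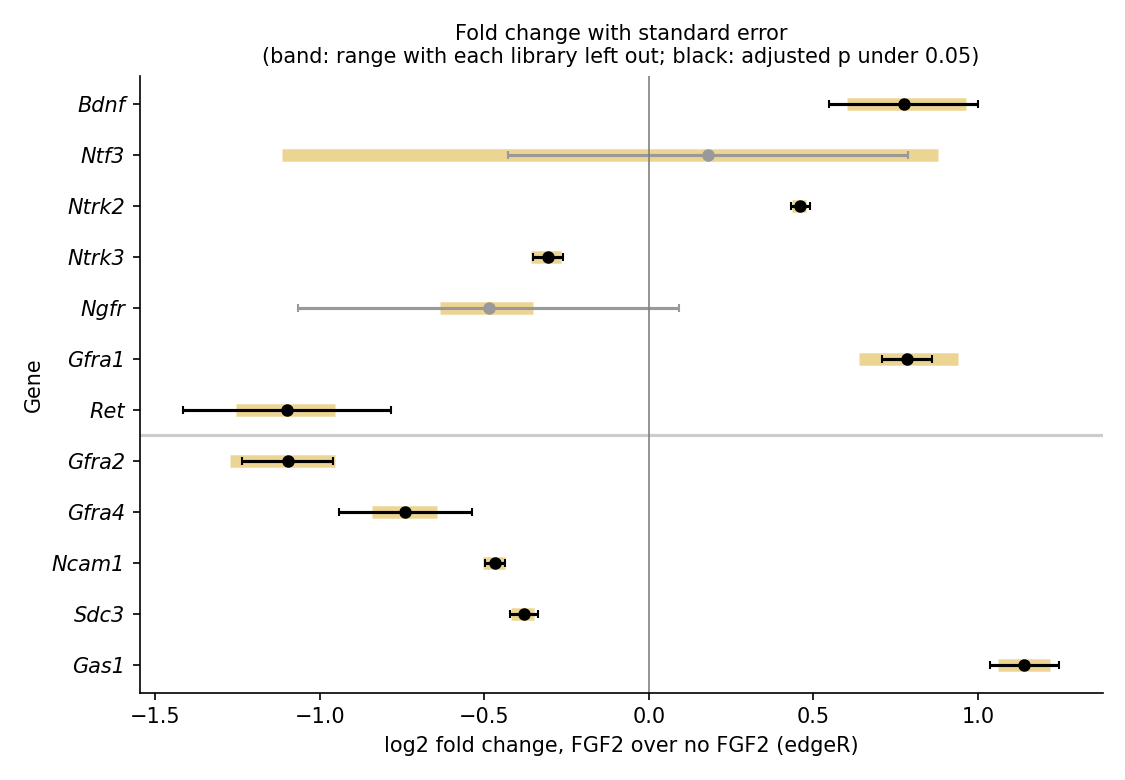
Log2 fold change (FGF2 over no FGF2, edgeR) of the 7 tested genes and, below the line, of 5 other tested ligands and receptors, with 1 SE as bars, the range with each library left out as a band, and called genes in black. Of the 7 tested genes only Ntf3 has a band that crosses 0, from -1.11 to 0.88, and Ngfr stays below 0 but was not called.

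Levels can be compared between genes only per length, and CPM were therefore divided by the union of exons in kilobases. With FGF2 the order was Ntrk2 (165 ± 3.37 CPM per kilobase), Gfra1 (17.5 ± 0.550), Ntrk3 (7.93 ± 0.357) and Bdnf (1.47 ± 0.0965). Below them stood Ntf3 (0.599 ± 0.513), Ret (0.368 ± 0.0541), Ngfr (0.261 ± 0.0365) and Gdnf (0.144 ± 0.0082), and the libraries of the neighbours Ntf3 and Ret overlapped. Without FGF2 the order was Ntrk2 (120 ± 1.27 CPM per kilobase), Gfra1 (10.2 ± 1.49), Ntrk3 (9.81 ± 0.0873), Bdnf (0.856 ± 0.152), Ret (0.788 ± 0.0167), Ntf3 (0.520 ± 0.204), Ngfr (0.367 ± 0.0270) and Gdnf (0.215 ± 0.0854). Here the libraries of Gfra1 and Ntrk3, of Bdnf and Ret, and of Ntf3 and Ngfr overlapped. Ntrk2 made up 85.3% of the summed level per kilobase of the 8 genes with FGF2 and 84.1% without. With the longest transcript as the length, Ntrk3 came before Gfra1 without FGF2.

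The other ligands and receptors of these families were a list of 14 genes, of which 6 passed the filter. Of these, 1 was higher and 4 were lower with FGF2, with a median log2 fold change of -0.42. The counts of this list and of the pathway lists after it stand beside 20.7% higher and 19.9% lower over all tested genes, whose median was -0.00082. Gfra2, the co-receptor for neurturin, had 11.5 and 14.4 CPM with FGF2 and 28.2 and 27.5 CPM without. Its log2 fold change was -1.10 (SE 0.14, edgeR adjusted p = 2.2e-14), opposite in sign to that of Gfra1. Gfra1 had 8.50 and 6.52 reads for each Gfra2 read with FGF2 and 1.77 and 2.23 without, a 3.75-fold difference in the ratio. Gas1 encodes a GPI-anchored protein related in structure to the GFRA co-receptors that also binds Hedgehog ligands. It had 52.8 and 50.6 CPM with FGF2 and 22.1 and 24.7 CPM without, a log2 fold change of 1.14 (SE 0.10, edgeR adjusted p = 3.2e-26).

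Gfra4, the co-receptor for persephin, had 60 and 70 counts in the FGF2 libraries against 129 and 116. Its log2 fold change was -0.74 (edgeR adjusted p = 0.00102, DESeq2 adjusted p = 0.0659). Sdc3, which encodes a proteoglycan that can bind GDNF, had 284 ± 9.78 CPM with FGF2 and 370 ± 8.43 CPM without (log2 fold change -0.38, edgeR adjusted p = 2.7e-18). Ntf5, the other TrkB ligand, had 1 count in the 4 libraries. Artn had 2 to 8 counts, Nrtn 1 to 3 and Gdf15 0 to 8 in each library, and Pspn, Gfra3 and Gfral had none.

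**Figure D3:**
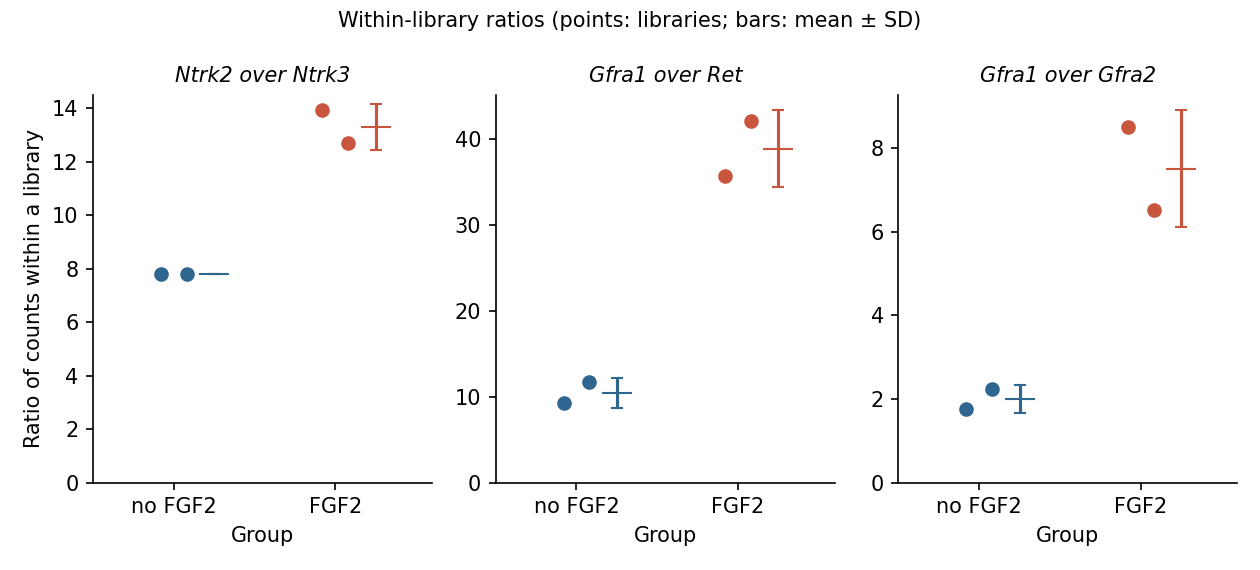
Ratios of read counts within a library for Ntrk2 over Ntrk3, Gfra1 over Ret and Gfra1 over Gfra2 on linear axes that start at 0, with 1 point for each library and the mean and SD of each group (n = 2) beside them. The FGF2 libraries lie above the no FGF2 libraries in each panel, with mean ratios of 13.3 against 7.81, 38.9 against 10.5 and 7.51 against 2.00.

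Sortilin-family receptors, p75 partners and the proteases that process neurotrophin precursors made up a list of 19 genes, all tested. With FGF2 8 were higher, 6 were lower and 5 did not pass, and the median log2 fold change was -0.02. The largest change was in Ripk2, a kinase adaptor that binds the death domain of p75 and also serves innate immune receptors, with 77.3 and 89.7 CPM with FGF2 and 8.64 and 11.5 CPM without. Its log2 fold change was 3.05 (SE 0.11, edgeR adjusted p = 9.9e-165) or 8.27-fold. Lingo1, a co-receptor of p75 in the Nogo receptor complex, was lower (log2 fold change -0.67, edgeR adjusted p = 1.1e-17), and Adam17, a sheddase of p75, was higher (log2 fold change 0.58, edgeR adjusted p = 1.9e-12). With DESeq2 9 of these genes passed, against 14.

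Adaptors and effectors that carry Trk and RET signals were 22 genes, all tested, and 5 of them rose and 6 fell with FGF2, with a median log2 fold change of -0.05 and none past 1 in size. These 11 of 22 stand beside the 40.5% of all tested genes called. Shc1 and Gab1, which link many receptor kinases to Ras and PI3 kinase, were higher (log2 fold changes 0.68 and 0.66, edgeR adjusted p = 1.4e-09 and 3.5e-31). Shc2, a Shc adaptor of neurons, was lower (log2 fold change -0.64, edgeR adjusted p = 6.2e-09). Shc3, another Shc gene, had 107 CPM with FGF2 and 108 CPM without and did not pass (log2 fold change -0.02, edgeR adjusted p = 0.881). With DESeq2 7 passed, and without replicate 1 of the no FGF2 group 6 passed with edgeR, against 11.

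Genes that neurotrophins are known to induce were 13 in number, all tested, and many of them also respond to other growth factors. With FGF2 6 were higher, 4 were lower and 3 did not pass, with a median log2 fold change of 0.66. The immediate early gene Egr2 had 28.1 and 27.3 CPM with FGF2 and 2.94 and 3.22 CPM without (log2 fold change 3.16, SE 0.19, edgeR adjusted p = 1.8e-61). Junb, Fos and Nr4a1 were also higher, with log2 fold changes of 2.29, 1.82 and 1.05 (edgeR adjusted p = 9.1e-53, 2.2e-56 and 6.3e-11). Egr3 and Homer1 were lower, with log2 fold changes of -0.58 and -0.49 (edgeR adjusted p = 0.00012 and 1.1e-09). Both also passed with DESeq2 (adjusted p = 0.031 and 7.4e-05), and their FGF2 libraries lay below the others. Npy, a neuropeptide of inhibitory neurons, had 15.5 and 13.5 CPM with FGF2 and 34.3 and 44.6 CPM without (log2 fold change -1.45, edgeR adjusted p = 8e-30). Arc, an activity-regulated synaptic gene, had 6.27 and 3.35 CPM with FGF2 and 8.64 and 5.71 CPM without. The groups overlapped, and its call (log2 fold change -0.59, edgeR adjusted p = 0.0451) was lost with DESeq2 (adjusted p = 0.386).

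Regulators of Bdnf transcription were 14 genes, all tested. With FGF2 2 were higher and 5 were lower, with a median log2 fold change of 0.04. The higher genes encode the repressors BHLHE40 and REST (log2 fold changes 0.76 and 0.67 for Bhlhe40 and Rest, edgeR adjusted p = 2.3e-20 and 5.2e-11). The lower genes included Crtc1, a coactivator of CREB, and the activity-regulated factors Mef2a, Mef2c and Mef2d, with log2 fold changes between -0.46 and -0.12. Creb1, whose product binds the CRE core shown above, had a log2 fold change of 0.04 and did not pass.

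**Figure D4:**
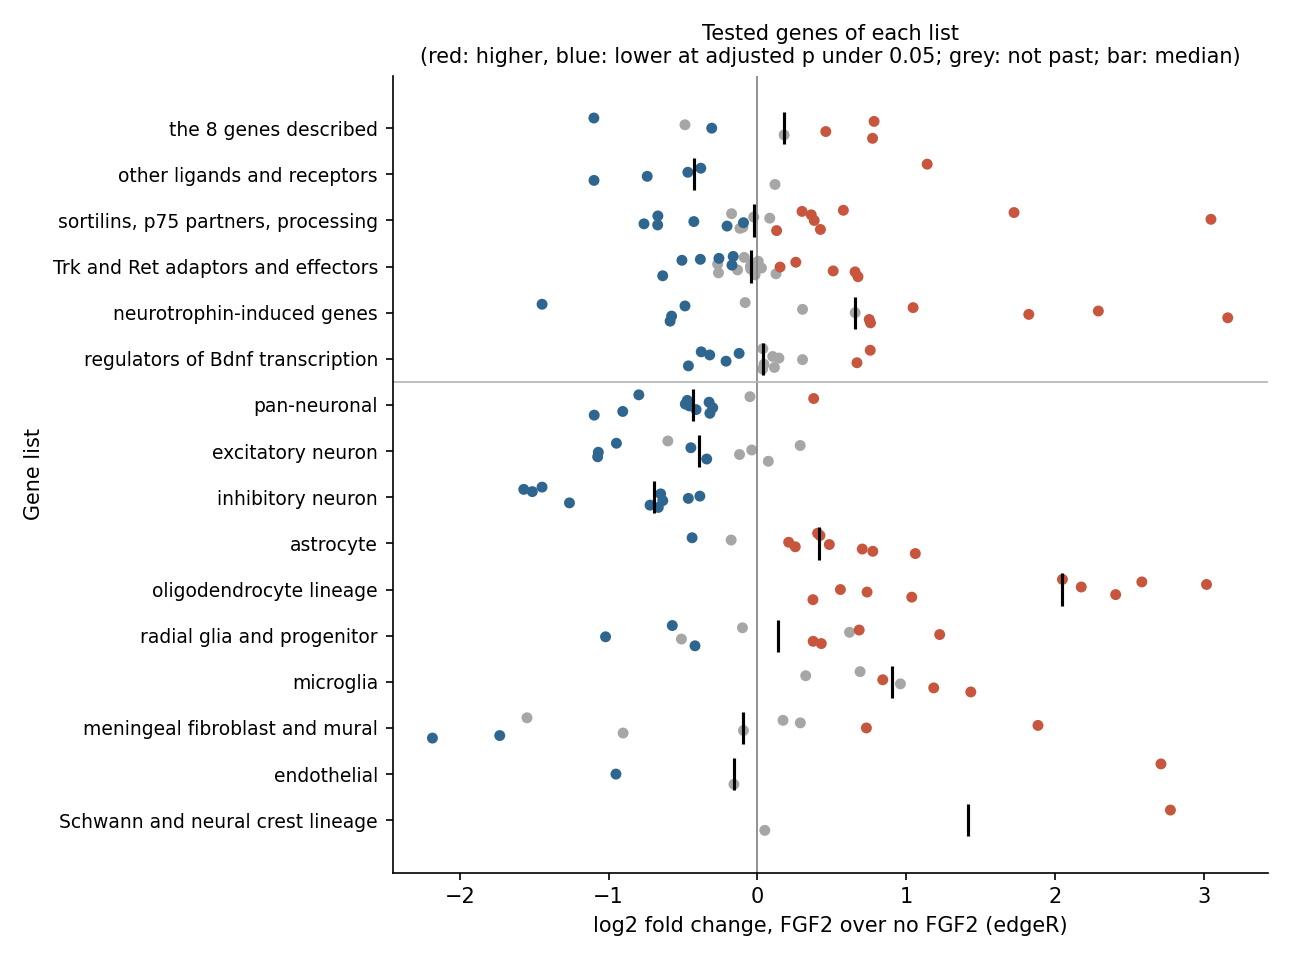
Log2 fold change (FGF2 over no FGF2, edgeR) of every tested gene in each list, with higher genes in red, lower genes in blue, genes not past the threshold in grey and the list median as a bar. The oligodendrocyte lineage and astrocyte medians lie above 0, at 2.05 and 0.41, and the pan-neuronal and inhibitory neuron medians lie below it, at -0.43 and -0.69.

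Cell type marker genes differed with FGF2 beside these genes, and in bulk libraries fewer cells of a type and less RNA per cell cannot be told apart. The list counts stand beside the 20.7% of all tested genes called higher and the 19.9% called lower. Of 12 pan-neuronal genes 10 were lower and 1 (Nefl, 0.38) was higher, with a summed level of 3847 to 3966 CPM with FGF2 and 5545 to 5563 CPM without (Map2 -0.32, Tubb3 -1.10 on the log2 scale). Excitatory neuron genes were lower in 5 of 10 (584 to 602 against 799 to 821 CPM, Camk2a -0.45, Neurod2 -1.07), and inhibitory neuron genes in 10 of 10 (685 to 692 against 1146 to 1184 CPM, Gad1 -0.67, Sst -1.57). Astrocyte genes were higher in 8 of 10 tested and lower in 1 (12595 to 12720 against 7722 to 7773 CPM, Gfap 1.06). Oligodendrocyte lineage genes were higher in 9 of 9 tested (1859 to 1868 against 558 to 567 CPM, Mbp 2.18). Radial glia and progenitor genes were mixed, with 4 higher and 3 lower of 10 (1984 to 1996 against 1099 to 1123 CPM, Vim 1.23, Hopx -1.02). Without Vim their sums were 418 to 420 CPM with FGF2 and 437 to 442 CPM without. Microglial genes summed to 18.4 to 21.8 CPM with FGF2 and 9.59 to 10.4 CPM without (3 of 6 tested higher, Csf1r 1.43). Meningeal and mural genes summed to 65.7 to 70.3 and 56.6 to 56.9 CPM (2 higher and 2 lower of 9 tested, Pdgfrb 0.73, Col1a1 -2.18), and without Pdgfrb to 19.3 to 21.3 and 28.0 to 28.1 CPM. Endothelial genes summed to 7.81 to 9.89 and 4.94 to 8.48 CPM (1 higher and 1 lower of 3 tested, Flt1 2.71), with Cldn5 and Tie1 at 0, and without Flt1 to 4.16 to 4.18 and 4.37 to 7.65 CPM. Schwann and neural crest genes, the lineage in which p75 and RET are abundant outside the brain, summed to 5.83 to 7.00 and 3.99 to 4.79 CPM (1 of 2 tested higher, Cdh19 2.78, Prx 0.05 with an edgeR adjusted p of 0.932), with Foxd3 and Pmp2 at 0. Flt1 and Cdh19 reached the expression filter only in the FGF2 libraries and Slc6a13, a meningeal gene, only in the others, so their tests lend no support to their lists.

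Beside these lists, the log2 fold change of Ntrk2 was 0.46 and the astrocyte median was 0.41. Those of Ntrk3 and Ret were -0.31 and -1.10, and the pan-neuronal median was -0.43. Bdnf, at 0.77, was higher while none of the 10 excitatory neuron genes was higher and their median was -0.39. Gfra1, at 0.78, is not set beside a single list. The cell type list medians ran from -0.69 for inhibitory neuron genes to 2.05 for oligodendrocyte lineage genes. The part of these marker differences in the results for the 8 genes was not tested.

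For the 4 called genes with a mean of at least 5 CPM, the 3 genes with the most alike pattern over the 4 libraries were found by the root mean square difference of centred log2 CPM among 12640 genes compared. For Ntrk2 these were Eci2 (0.00468), Mlc1 (0.00597) and Camsap2 (0.00697). For Ntrk3 they were Aff2 (0.00651), Vps26b (0.0081) and Cluh (0.00922), and for Gfra1 they were Dennd3 (0.0119), Tprn (0.0249) and Plin3 (0.0281). Those of Bdnf were A730056A06Rik (0.0238), Rab13 (0.0256) and Entpd2 (0.0312). The 4 libraries hold 2 conditions only, so that this measure ranks mainly the size of the difference between them.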

How the data were processed

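Total RNA of 4 libraries of mouse P0 PFC cultures was measured. The values deposited by the authors are raw counts per gene, not normalized, made with HTSeq 0.11.2 from HISAT2 2.1.0 alignments to mm10 with a mapping quality of at least 20 (samtools). The release of the annotation and the strand setting are not given in the sources used here. Of genes lying at least 98% within another gene, 8 of 784 had a count where that gene was on the same strand and 160 of 472 where it was on the opposite strand. Gene names came from GENCODE M21 (55240 of 55421 identifiers matched), and 5 tallies that name no gene were left out. These held 43.2% to 45.9% of the tallied read pairs as no feature and 1.47% to 1.77% as ambiguous.

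Counts were tested with edgeR 4.0.16 in R 4.3.3 (TMM, the edgeR expression filter with a minimum count of 10, robust quasi-likelihood fit, adjusted p below 0.05), with DESeq2 1.42.0 and limma-voom (limma 3.58.1) as alternatives. Scaling by RLE, by upper quartile or by total counts, no filter, at least 10 counts in every library, the replicate number as a block, a threshold of 0.01 and each library left out were the other alternatives. Fits were tested on simulated data. Replicates differed beyond sampling noise (chi-square per degree of freedom 2.28 with FGF2 and 1.76 without), so that n counts libraries. Intervals and detection floors cover counting error only.

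The 8 genes and all lists were chosen with earlier results of these data known. By the rule for named genes, the text gives the 8 genes, the tested other ligands and receptors, pathway genes with an absolute log2 fold change over 1, and from each cell type list the gene with the highest mean CPM and the gene with the largest change. It also gives the 3 most alike genes for each called gene with a mean of at least 5 CPM. Other genes named were chosen after their values were seen, and a few list genes, counted in their lists, are not reported by name. RefSeq starts of Ntrk3 and Ret were not used here.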

Additional observations from a re-analysis of the deposited data

How the results depend on the processing

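Of 49 fold changes of the 8 genes under alternatives with all libraries and no block, 46 kept both direction and call. With DESeq2 Bdnf (0.77, adjusted p = 0.102) and Ret (-1.10, adjusted p = 0.0805) did not pass, which left 2 of the 8 genes higher and 1 lower, and with limma-voom Ntf3 turned to -0.064. DESeq2 called 2068 genes higher and 1939 lower against 3541 and 3408 with edgeR, 9 against 14 genes of the sortilin and p75 list, and 7 against 11 adaptors. With each library left out, log2 fold changes ran from 0.60 to 0.96 for Bdnf, lost without no FGF2 replicate 1, and from -1.11 to 0.88 for Ntf3, which turned without FGF2 replicate 1 (-1.11) and without no FGF2 replicate 2 (-0.17). Adaptors called ran from 6 to 10. The cause was not tested. By the longest transcript, Ntrk2 made up 90.9% with FGF2 and 89.7% without of the summed level per kilobase. Library deviations were uncorrelated between equal replicate numbers (1.28e-05). No difference shared by equal numbers was seen, which cannot exclude that the numbers pair the libraries. With the replicate block 3476 genes were higher and 3338 lower and none of the 7 tested genes changed its call. Of 130 counts over the cell type lists 13 moved by more than 1.5 times, in the microglial, endothelial and Schwann lists of few detected genes. Depth limits Ntf3, Ngfr and Gdnf, whose sums were 10 to 27 counts in a group. Gdnf gave no value under the alternatives that kept the expression filter on all 4 libraries or without no FGF2 replicate 2, and Ntf3 and Ngfr gave none with at least 10 counts in every library.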
